A study of Homo sapiens with 12 samples.

Results

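The 10 genes described here are transcriptional outputs and brakes of mitogen-activated protein kinase (MAPK) signalling: the phosphatase genes DUSP1, DUSP4, DUSP5, DUSP6 and DUSP10, the receptor-signalling antagonists SPRY2 and SPRY4, the ETS transcription factors ETV4 and ETV5, and PHLDA1. They were chosen by name and each matched 1 row of the 16383 genes listed. RNA was measured by sequencing of polyadenylated RNA in IMR90, a human fibroblast line from lung that the labels call wild type. There were 4 groups with 3 libraries in each. Proliferating cells received neither radiation nor a compound. The other 3 groups received 20 Gy of ionizing radiation, which drives these cells into senescence, a lasting arrest of division, and were collected on day 11. From day 4 they were given DMSO (the solvent), palbociclib at 2 µM (an inhibitor of the kinases CDK4 and CDK6) or ruxolitinib at 2 µM (an inhibitor of the Janus kinases, JAK), with doses on days 4, 6, 8 and 10. The labels give the proliferating cells no DMSO and no day of harvest, so that radiation, solvent and time in culture cannot be told apart between proliferating and DMSO cells. All data come from 1 cell line, and nothing says that the libraries of a group came from separate cultures, so the p-values measure the spread between these libraries, which may be technical.

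The ERK branch of MAPK signalling runs from receptor tyrosine kinases at the membrane through RAS, RAF and MEK to the kinase ERK. ERK activates transcription of the genes that restrain it: dual-specificity phosphatases (DUSPs) remove phosphate from ERK or from its relatives p38 and JNK, and Sprouty proteins act upstream, between the receptor and RAF. ETV4 and ETV5 are transcription factors that carry part of the response to growth factor receptors. Many transcripts of these kinds, though not every one, are commonly read as a record of recent ERK activity.

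Over the listed genes the libraries held 14106799 to 21762412 recovered reads. A chi-square statistic per gene that would be near 1 for counting noise was 1.98 to 25.1 between libraries of a group, highest for the pair A119 and A120 with palbociclib. Among proliferating libraries it was 2.95 for A125 and A127, and 11.9 and 17.1 for the pairs with A126. The 9 fibroblast markers checked (COL1A1, COL1A2, COL3A1, DCN, LUM, VIM, PDGFRB, THY1 and FAP) were present in every library, with COL1A1 at 163000 or more normalized counts. They summed to 815000 to 849000 in proliferating libraries, 405000 to 415000 under DMSO, 648000 to 681000 with palbociclib and 512000 to 516000 with ruxolitinib. The 5 leukocyte markers summed to 2.22 to 8.3 normalized counts in proliferating libraries, 30.8 to 40.6 under DMSO, 14.2 to 25.2 with palbociclib and 17.1 to 27.8 with ruxolitinib. The 6 epithelial markers, mostly KRT19, summed to 99.0 to 143 in proliferating libraries, 267 to 310 under DMSO, 380 to 502 with palbociclib and 299 to 351 with ruxolitinib. The 4 endothelial markers, nearly all TEK, summed to 1680 to 1950, 2380 to 2540, 3500 to 4380 and 2240 to 2250 in the same order. CDH5 and PECAM1 did not exceed 15.3 and VWF did not exceed 35.1. The part of these marker levels in the results was not tested.

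Promoter sequence from RefSeq (GRCh38.p14), 250 bases before the start site, was matched for 6 of the 10 genes (DUSP1, DUSP6, DUSP10, SPRY2, SPRY4 and PHLDA1). It is shown for DUSP1, the phosphatase gene that rose with palbociclib, and for DUSP10 and PHLDA1, which fell. All 3 genes lie on the minus strand and each sequence is read 5′ to 3′ toward the start site. The windows are chr5:172771196-172771445, chr1:221742090-221742339 and chr12:76031777-76032026. Capitals mark a match to the cyclic AMP response element (CRE).
DUSP1: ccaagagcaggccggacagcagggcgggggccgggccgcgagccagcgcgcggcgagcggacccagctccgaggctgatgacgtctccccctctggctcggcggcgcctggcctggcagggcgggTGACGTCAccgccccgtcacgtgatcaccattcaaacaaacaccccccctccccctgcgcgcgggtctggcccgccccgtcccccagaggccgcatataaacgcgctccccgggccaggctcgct
DUSP10: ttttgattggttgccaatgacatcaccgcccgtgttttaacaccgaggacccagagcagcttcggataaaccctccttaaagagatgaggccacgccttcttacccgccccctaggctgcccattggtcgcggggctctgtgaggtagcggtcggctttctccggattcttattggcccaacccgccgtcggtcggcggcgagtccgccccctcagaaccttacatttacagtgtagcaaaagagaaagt
PHLDA1: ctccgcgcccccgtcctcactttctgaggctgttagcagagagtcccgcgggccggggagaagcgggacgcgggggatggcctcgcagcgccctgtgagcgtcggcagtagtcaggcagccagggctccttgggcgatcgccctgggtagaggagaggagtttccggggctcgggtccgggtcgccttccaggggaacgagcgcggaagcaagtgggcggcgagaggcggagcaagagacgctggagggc

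The windows, extended to 50 bases past the start, were searched on both strands for the ETS core CCGGAAGT, the AP-1 site TGANTCA, the CRE TGACGTCA, the STAT site TTCCNGGAA and the CArG box of serum response factor. Of the 9 windows of these 6 genes, which include alternative starts of DUSP10 and SPRY2, 1 held a match. It was the CRE of DUSP1, from base -125 to base -118 counted from the start site. Over 35116 windows of the same length, 1.85% held a CRE, 4.14% the ETS core, 7.71% the AP-1 site, 1.15% the STAT site and 1.29% a CArG box. The letters of the DUSP1, DUSP10 and PHLDA1 windows were 74.4%, 56.4% and 70.4% G or C.

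Per kilobase of exon (the union of GENCODE exons), the members differed widely in level. In proliferating cells DUSP1 stood at 1375 and PHLDA1 at 1274 normalized counts per kilobase, DUSP5, SPRY4, SPRY2, DUSP6, ETV5, ETV4 and DUSP10 between 188 and 332, and DUSP4 at 5.61. With palbociclib DUSP1 stood at 2524 and PHLDA1 at 749 per kilobase. Values below are normalized counts, which compare libraries and not genes, and each gene is given with its RefSeq position on GRCh38.p14. All 10 but DUSP5 lie on the minus strand.

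**Figure D1:**
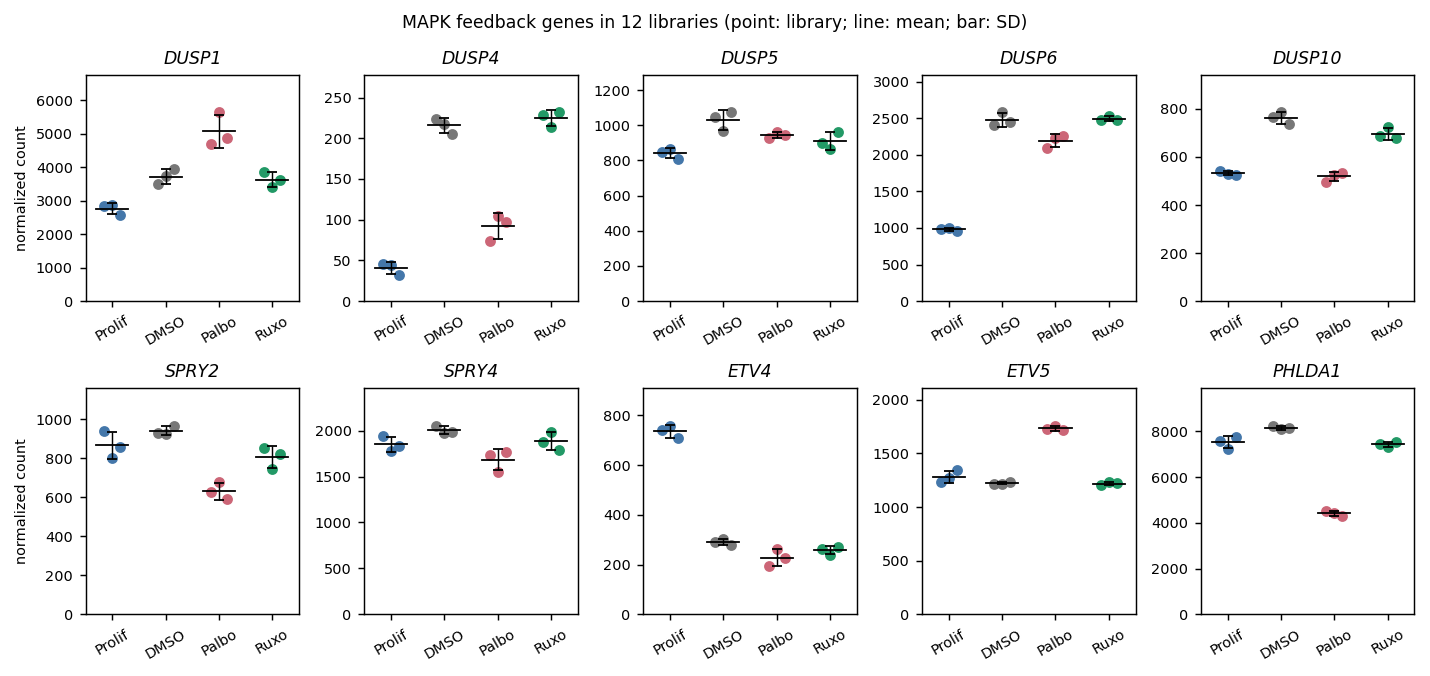
Normalized counts (vertical axis, from 0) of the 10 genes in the 12 libraries by group, with 1 point per library, a line at the mean and a bar for the SD of 3 libraries. DUSP4, DUSP6 and DUSP10 are higher in DMSO than in proliferating libraries and ETV4 is lower, while the palbociclib libraries are lowest for PHLDA1 and SPRY2 and highest for DUSP1 and ETV5.

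Among the phosphatases that act on ERK, DUSP6 and DUSP4 changed most after irradiation. DUSP6 (chr12:89347235-89352501) encodes a cytoplasmic phosphatase with high selectivity for ERK. It stood at 988.8, 997.0 and 961.8 normalized counts in proliferating libraries and at 2403, 2580 and 2447 with DMSO. Both sets were narrow and far apart, a rise of 2.52-fold (log2 fold change 1.33, SE 0.05, adjusted p = 1.95e-12). Such a rise in bulk RNA does not separate more expressing cells from more RNA per cell, and the same holds for every change below. With palbociclib DUSP6 was 2094, 2230 and 2254, slightly below every DMSO library (log2 fold change -0.18, SE 0.05, adjusted p = 0.00863). With ruxolitinib it was 2474, 2534 and 2474, within the spread of DMSO (0.01, 95% interval -0.09 to 0.12). The order of the levels was therefore proliferating, palbociclib, then DMSO and ruxolitinib, and the last 2 did not differ beyond their spread. GENCODE places a long noncoding RNA on the opposite strand that shares 28.6% of the DUSP6 exon bases, and whether the counting used strand is not stated.

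DUSP4 (chr8:29333064-29350684) encodes an inducible nuclear phosphatase. It was rare in proliferating cells, at 45.65, 44.36 and 32.38 normalized counts. With DMSO it was 223.7, 217.8 and 205.8, with palbociclib 74.15, 105.1 and 97.71, and with ruxolitinib 228.4, 214.3 and 231.9. All DMSO libraries were above all palbociclib libraries, and these were above all proliferating ones. The rise after irradiation was 5.24-fold (log2 fold change 2.39, SE 0.15, adjusted p = 8.97e-10), the fall with palbociclib was to 0.426 of the DMSO level (-1.23, SE 0.15, adjusted p = 8.41e-06), and palbociclib cells remained 2.23-fold above proliferating cells (adjusted p = 3.69e-06). Ruxolitinib libraries overlapped those with DMSO and the difference was not called (0.06, 95% interval -0.26 to 0.38).

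DUSP5 (chr10:110497907-110511533), a nuclear phosphatase selective for ERK, changed less. Its values were 846.7, 866.2 and 810.4 in proliferating libraries, 1050, 967.2 and 1074 with DMSO, 927.4, 960.0 and 946.9 with palbociclib and 898.9, 864.4 and 964.6 with ruxolitinib. The rise after irradiation was 1.22-fold (log2 fold change 0.29, SE 0.06, adjusted p = 0.000486). Palbociclib libraries lay below those with DMSO without overlap, but the difference was not called (-0.12, adjusted p = 0.107). It was called once library totals were made equal (-0.35, adjusted p = 0.000316, range over alternatives 0.000316 to 0.299). In the order proliferating, ruxolitinib, palbociclib, DMSO no neighbours were called apart by limma at the authors' scaling. The step from proliferating to ruxolitinib (0.11, adjusted p = 0.113) was called by edgeR (0.18, adjusted p = 0.0156), by DESeq2 (0.18, adjusted p = 0.0182) and under 3 other scalings (0.29 to 0.32), with a range over alternatives of 0.000376 to 0.385.

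DUSP1 and DUSP10 encode phosphatases that act strongly on p38 and JNK. They rose together after irradiation and separated with palbociclib. DUSP1 (chr5:172768096-172771195), an immediate early gene, stood at 2846, 2867 and 2590 normalized counts in proliferating libraries, 3491, 3735 and 3944 with DMSO, 4702, 5647 and 4893 with palbociclib and 3862, 3418 and 3608 with ruxolitinib. Every palbociclib library was above every other library, with A120 the highest. The rise after irradiation was 1.34-fold (log2 fold change 0.43, SE 0.07, adjusted p = 6.89e-05) and a further rise of 1.36-fold came with palbociclib (0.45, SE 0.07, adjusted p = 0.000135). Ruxolitinib libraries overlapped those with DMSO (-0.04, 95% interval -0.19 to 0.12).

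DUSP10 (chr1:221701424-221742089) stood at 542.7, 531.2 and 523.7 normalized counts in proliferating libraries, 765.1, 786.1 and 735.4 with DMSO, 496.9, 525.4 and 534.7 with palbociclib and 687.5, 723.9 and 677.7 with ruxolitinib. Palbociclib libraries overlapped the proliferating ones and lay below every DMSO library. The rise after irradiation was 1.43-fold (log2 fold change 0.52, SE 0.06, adjusted p = 1.31e-06) and the palbociclib level was 0.681 of the DMSO level (-0.55, SE 0.06, adjusted p = 2.70e-06). Between palbociclib and proliferating cells the difference was -0.04 (95% interval -0.17 to 0.09), a sign that turned with the scaling (0.15 with quantile normalization, adjusted p = 0.0365, range over alternatives 0.0365 to 0.988). Ruxolitinib libraries lay just below those with DMSO and were not called (-0.13, adjusted p = 0.308).

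SPRY2 and SPRY4, which encode Sprouty proteins, fell with palbociclib, and whether they were called higher after irradiation depended on the scaling and the test. SPRY2 (chr13:80335976-80341126) was 939.0, 802.9 and 859.9 in proliferating libraries, 927.5, 926.9 and 967.8 with DMSO, 627.5, 677.6 and 590.7 with palbociclib and 851.8, 746.5 and 824.7 with ruxolitinib. The palbociclib libraries were the lowest of the 12, at 0.671 of the DMSO level (log2 fold change -0.58, SE 0.07, adjusted p = 1.50e-05) and 0.729 of the proliferating level (-0.46, SE 0.07, adjusted p = 4.33e-05). Its difference after irradiation was 0.12 (95% interval -0.04 to 0.28, adjusted p = 0.157). Ruxolitinib libraries lay below all DMSO libraries and were not called (-0.22, adjusted p = 0.121), whereas a fit of those groups alone called them (adjusted p = 0.00431, range over alternatives 0.00431 to 0.429).

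SPRY4 (chr5:142310430-142325021) was 1942, 1776 and 1830 in proliferating libraries, 2054, 1975 and 1989 with DMSO, 1731, 1549 and 1766 with palbociclib and 1874, 1983 and 1788 with ruxolitinib. Palbociclib libraries were again the lowest, A120 most of all. The palbociclib level was 0.837 of that with DMSO (log2 fold change -0.26, SE 0.06, adjusted p = 0.00285). Against proliferating cells it was -0.14 and narrowly not called (adjusted p = 0.0509), and it was called without A126, A119 or A121 (adjusted p = 0.031, 0.041 and 0.0321; range over alternatives 0.031 to 0.888). The difference after irradiation was 0.12 (95% interval -0.01 to 0.25, adjusted p = 0.0926). Both were called higher after irradiation by edgeR (SPRY2 0.18, adjusted p = 0.0401, and SPRY4 0.18, adjusted p = 0.0155), by DESeq2 (0.18, adjusted p = 0.0424, and 0.18, adjusted p = 0.0127) and under 3 other scalings (0.28 to 0.35 for both). Over all alternatives the adjusted p ranged from 0.000523 to 0.455 for SPRY2 and from 0.000105 to 0.234 for SPRY4.

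ETV4 and ETV5, close relatives in the PEA3 group of ETS factors, did not move together. ETV4 (chr17:43527846-43546340) was 739.8, 758.6 and 707.5 normalized counts in proliferating libraries and 291.0, 301.9 and 278.7 with DMSO. With palbociclib it was 194.8, 262.7 and 228.3, and with ruxolitinib 262.3, 240.4 and 270.7. All irradiated libraries were far below the proliferating ones, and palbociclib libraries were below all those with DMSO. After irradiation ETV4 fell to 0.396 of its proliferating level (log2 fold change -1.34, SE 0.10, adjusted p = 5.44e-09) and with palbociclib to 0.782 of the DMSO level (-0.35, SE 0.10, adjusted p = 0.00745). Ruxolitinib libraries were also below those with DMSO without overlap, but were not called (-0.17, adjusted p = 0.430). DHX8, on the opposite strand, shares 1.93% of the ETV4 exon bases, and its mean was 1388 normalized counts in proliferating libraries, 1104 with DMSO, 876.2 with palbociclib and 1064 with ruxolitinib. The part of these reads in the ETV4 values was not tested.

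ETV5 (chr3:186046314-186109089) was 1236, 1270 and 1345 in proliferating libraries, 1220, 1219 and 1236 with DMSO, 1731, 1760 and 1716 with palbociclib and 1206, 1232 and 1222 with ruxolitinib. The palbociclib libraries stood above all the others, at 1.42-fold the DMSO level (log2 fold change 0.50, SE 0.05, adjusted p = 8.94e-07) and 1.35-fold the proliferating level (0.44, SE 0.05, adjusted p = 8.14e-07). Between DMSO and proliferating cells the difference was -0.07 (adjusted p = 0.238), and at the same total it turned to 0.16 and was called (adjusted p = 0.00571, range over alternatives 0.00571 to 0.935). DGKG, the neighbour on the same strand, shares 2.84% of the ETV5 exon bases and averaged 12.3 to 45.2 normalized counts over the groups. The part of these reads in the ETV5 values was not tested. ETV1, the remaining gene of the PEA3 group, was 534.8 ± 79.9 (SD, n = 3) in proliferating libraries, 566.5 ± 25.9 in those with DMSO, 256.0 ± 18.1 after palbociclib and 510.5 ± 12.3 with ruxolitinib. It fell with palbociclib (log2 fold change -1.14, SE 0.10, adjusted p = 1.81e-07), so that ETV1 and ETV4 were lower and ETV5 higher than with DMSO.

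PHLDA1 (chr12:76025447-76031776), which encodes a small protein with a pleckstrin homology-like domain, fell with palbociclib. It was 7590, 7245 and 7765 in proliferating libraries, 8256, 8091 and 8147 with DMSO, 4536, 4421 and 4323 with palbociclib and 7436, 7338 and 7531 with ruxolitinib. The palbociclib libraries stood alone, at 0.542 of the DMSO level (log2 fold change -0.88, SE 0.04, adjusted p = 3.96e-10) and 0.588 of the proliferating level (-0.77, SE 0.04, adjusted p = 2.29e-10). The rise after irradiation was small, 1.08-fold (0.12, SE 0.04, adjusted p = 0.0249). That call was lost without A126 (0.09, adjusted p = 0.0934), A116 (0.11, 0.0731) or A118 (0.12, 0.0546), and over all alternatives its adjusted p ranged from 1.80e-06 to 0.0934. An antisense RNA, PHLDA1-AS1, shares 9.35% of the PHLDA1 exon bases.

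**Figure D2:**
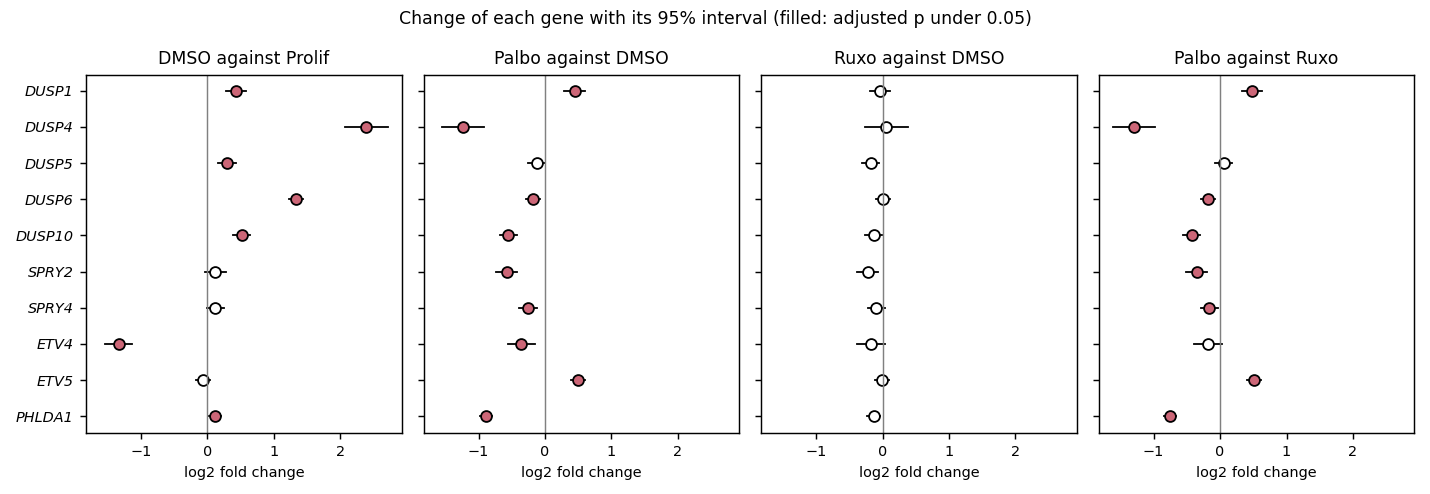
Log2 fold change (horizontal axis) of each gene in 4 comparisons, with its 95% interval from limma as a bar. Filled points are called at an adjusted p under 0.05: 7 genes after irradiation, 9 with palbociclib, none with ruxolitinib, and 8 between the inhibitors.

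Across the 10 genes, 6 were higher and 1 was lower in DMSO than in proliferating cells (limma on log2 normalized counts, adjusted over all genes, called at an adjusted p under 0.05). Of all 11242 genes tested, 33.0% were called higher and 39.3% lower. The median log2 fold change of the 10 genes was 0.21, beside -0.05 over all genes tested. At the same total for every library, 9 of the 10 were higher, beside 5289 of all 11261 genes tested at that scaling. Of all called genes 45.7% were higher at the authors' scaling, 64.0% at the same total, where the median gene shifted by 0.23, and 58.6% at the same upper quartile, where it shifted by 0.16. The phosphatase genes and the fall of ETV4 were called in each of the 18 alternatives tried.

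With palbociclib 2 of the 10 genes were higher than with DMSO (DUSP1 and ETV5) and 7 were lower (DUSP4, DUSP6, DUSP10, SPRY2, SPRY4, ETV4 and PHLDA1). The background was 26.0% of all tested genes higher and 22.3% lower. The median of the 10 was -0.31, beside 0.02 over all genes tested. These 9 calls held in every one of the 18 alternatives, and their directions did not turn. The sizes depended on the scaling. At the same total, where the median gene shifted by -0.23 and 15.4% of called genes were higher in place of 53.9%, the rises were 0.22 for DUSP1 and 0.28 for ETV5. The decreases there were -0.40 for DUSP6, -0.48 for SPRY4 and -0.58 for ETV4. The DMSO libraries enter this comparison, the one with proliferating cells and the one with ruxolitinib.

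**Figure D3:**
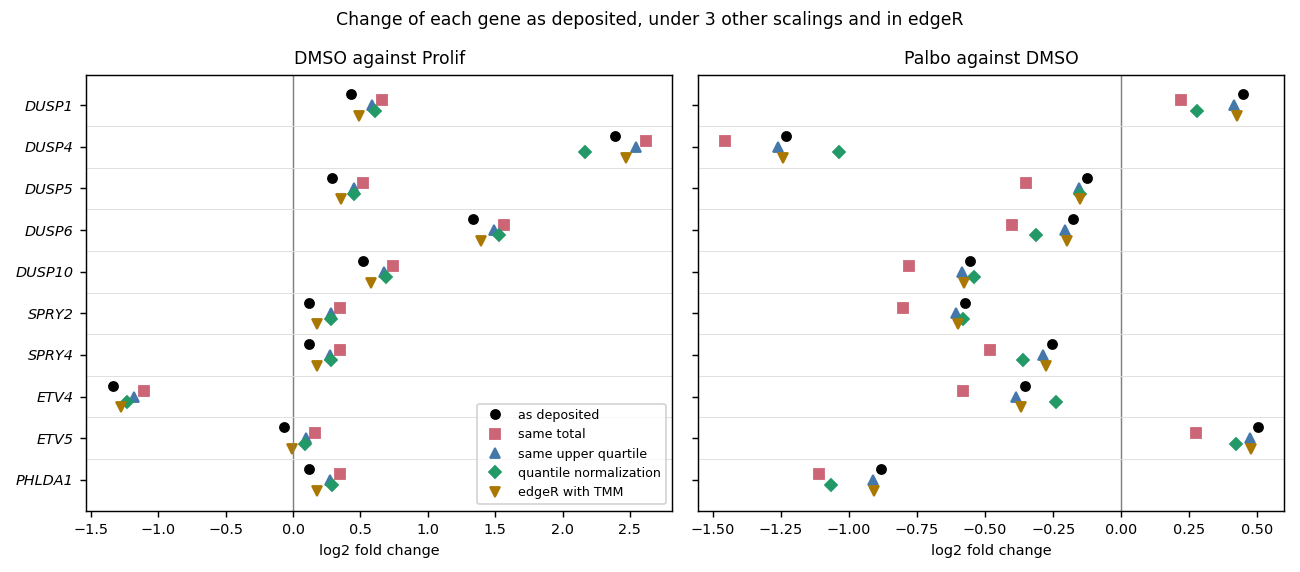
Log2 fold change (horizontal axis) of each gene in DMSO against proliferating cells and in palbociclib against DMSO, as deposited, under 3 other scalings and in edgeR with TMM factors. The points of SPRY2 and SPRY4 stay above 0 in the left panel and those of ETV5 lie on both sides of it, whereas in the right panel each gene keeps its side.

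With ruxolitinib none of the 10 genes was called higher or lower than with DMSO by limma. At an unadjusted p under 0.05, 4 were lower (DUSP5, DUSP10, SPRY2 and PHLDA1) and none higher, beside 9.24% and 6.56% of all tested genes. DESeq2 called 1 gene lower (PHLDA1, -0.13, adjusted p = 0.0326), edgeR called none, limma at the same total for every library called PHLDA1 lower, and a limma fit of those groups alone called 3 lower (DUSP5, SPRY2 and PHLDA1). Over all genes tested the limma fit of the 4 groups called 1.10% higher and 3.42% lower. DESeq2 called 200 higher and 451 lower of 11017, edgeR 153 and 403 of 11242, and limma at the same total 87 and 470 of 11261. For the fit of the ruxolitinib and DMSO groups alone, no count over all genes is given here or below. Its calls therefore stand without a background share. The median of the 10 was -0.11, beside 0.00 over all genes tested. The 95% intervals bound the changes: none reached beyond -0.38 or 0.38 on the log2 scale.

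The inhibitors, given at the same concentration on the same days, differed for 8 of the 10 genes when compared directly, with p-values adjusted over all genes. DUSP1 and ETV5 were higher with palbociclib than with ruxolitinib, and DUSP4, DUSP6, DUSP10, SPRY2, SPRY4 and PHLDA1 were lower, beside 22.8% of all genes higher and 17.6% lower. Of all called genes 56.4% were higher here and 15.7% at the same total, 45.8% at the same upper quartile, with these directions unchanged for the 8 genes in the 18 alternatives. The largest differences were -1.29 for DUSP4 (SE 0.15, adjusted p = 6.94e-06), -0.75 for PHLDA1 (SE 0.04, adjusted p = 3.93e-09), 0.51 for ETV5 (SE 0.05, adjusted p = 1.06e-06) and 0.48 for DUSP1 (SE 0.07, adjusted p = 8.57e-05). The difference of SPRY4 was marginal (-0.16, adjusted p = 0.0433). It was not called without A120 (-0.11, adjusted p = 0.166), A122 (-0.17, 0.0958) or A123 (-0.13, 0.177). Nor was it called by limma without a trend (adjusted p = 0.0703), by limma on the inhibitor groups alone (0.0829) or at a threshold of 0.01. Over all alternatives its adjusted p ranged from 0.000214 to 0.177. DUSP5 (0.06, 95% interval -0.07 to 0.19) and ETV4 (-0.18, 95% interval -0.39 to 0.03) were not called, and without A120 ETV4 was (-0.29, adjusted p = 0.0205, range over alternatives 0.00566 to 0.546).

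Against proliferating cells, 5 of the 10 genes were higher with palbociclib (DUSP1, DUSP4, DUSP5, DUSP6 and ETV5) and 3 lower (SPRY2, ETV4 and PHLDA1). The background was 35.2% higher and 38.6% lower. DUSP1 reached 1.83-fold the proliferating level (log2 fold change 0.87, adjusted p = 2.24e-08), DUSP6 2.23-fold (1.16, adjusted p = 7.01e-12) and ETV4 0.310 (-1.69, adjusted p = 2.63e-10). The call of DUSP5 (0.17, adjusted p = 0.0215) was lost without A127 (0.14, adjusted p = 0.0776, range over alternatives 0.000483 to 0.0776). It was also lost in a limma fit of the palbociclib and proliferating groups alone (adjusted p = 0.0536) and at a threshold of 0.01. With ruxolitinib 4 genes were higher than in proliferating cells (DUSP1, DUSP4, DUSP6 and DUSP10) and ETV4 was lower, beside 32.6% and 39.5% of all genes. There 45.2% of called genes were higher, against 61.7% with equal library totals and 59.4% with equal upper quartiles, where 8 and 7 of the 10 genes were called higher. Beside these stood 5049 of all 11261 genes tested at equal totals and 4829 of 11252 at equal upper quartiles. The added calls at equal totals were DUSP5, SPRY4 (0.23, adjusted p = 0.00342, against 0.02 at the authors' scaling), ETV5 (0.13, adjusted p = 0.0203, against -0.07) and PHLDA1 (0.19, adjusted p = 0.000821, against -0.02), so that for ETV5 and PHLDA1 the sign turned as well. With ruxolitinib DUSP4 differed from proliferating cells by 2.45, DUSP6 by 1.34 and ETV4 by -1.51 on the log2 scale.

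Ratios of paired genes within a library do not depend on scaling by 1 factor per library, and 4 pairs were taken after the values had been seen. The ratios were not recomputed after quantile normalization, which is not a scaling of that kind. The log2 ratio of ETV5 to ETV4 was 0.80 ± 0.11 (SD, n = 3) in proliferating libraries, 2.08 ± 0.07 under DMSO, 2.94 ± 0.20 under palbociclib and 2.24 ± 0.10 under ruxolitinib. None of these groups overlapped. The ratio of DUSP1 to DUSP10 was 2.38 ± 0.06 in proliferating cells and 2.29 ± 0.12 with DMSO, and these overlapped, while with palbociclib it was 3.29 ± 0.12, above every other library. The ratio of DUSP6 to DUSP4 was 4.61 ± 0.25 in proliferating libraries, 3.52 ± 0.08 under DMSO, 4.59 ± 0.21 under palbociclib and 3.47 ± 0.08 with ruxolitinib. Palbociclib and proliferating libraries overlapped for this pair, although both genes were higher with palbociclib. The ratio of SPRY4 to SPRY2 was 1.09 ± 0.05 in proliferating and 1.09 ± 0.05 in DMSO libraries, 1.41 ± 0.20 with palbociclib and 1.22 ± 0.16 with ruxolitinib. For groups of 3 the exact two-sided permutation test cannot go below p = 0.1, and pairs of groups that did not overlap gave that value.

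**Figure D4:**
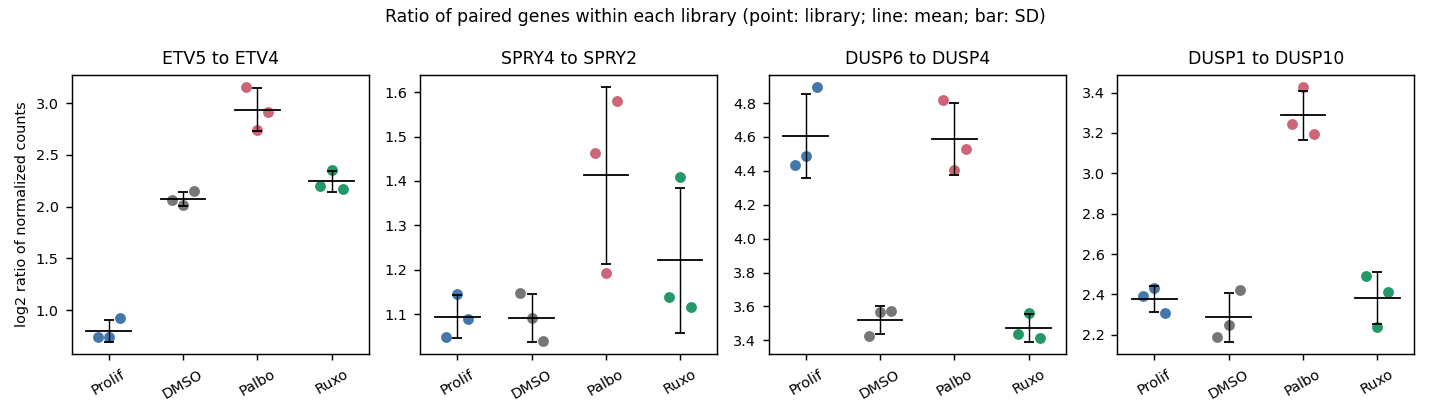
Log2 ratio of the normalized counts of paired genes (vertical axis, not from 0) in each library by group, with lines at the mean and bars for the SD of 3 libraries. The ETV5 to ETV4 ratio is lowest in proliferating libraries and highest with palbociclib, and the DUSP1 to DUSP10 ratio is raised in the palbociclib libraries alone.

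The closest patterns over the 12 libraries, given here for the members other than DUSP1, differed from member to member. By Pearson r of log2 values across the libraries, the 3 nearest tested genes were HSPB8, TOB1 and SAT1 for DUSP6 (r = 0.997, 0.997 and 0.996), MT1G, EHF and PDE4C for DUSP4 (r = 0.994, 0.993 and 0.992) and UBE2T, RNASEH2B and RPL39L for ETV4 (r = 0.997, 0.996 and 0.996). For PHLDA1 they were PRDM1, ETV1 and ZC3H12C (r = 0.987, 0.985 and 0.984) and for ETV5 LRRC2, C1orf198 and SLC2A1 (0.988, 0.987 and 0.984). For DUSP10 they were GDNF, PER1 and PROCR (0.974, 0.972 and 0.971), for SPRY2 IL4R, TOP3B and GPATCH2 (0.954, 0.953 and 0.948), for SPRY4 PAN2, GANC and CRAMP1 (0.935, 0.929 and 0.912) and for DUSP5 FZD8, MAFF and APOL2 (0.918, 0.909 and 0.902). None of the 10 genes was among the 3 nearest of another. The 12 libraries come from 4 groups and are not 12 independent points, and the correlations are given as a description.

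The other genes of the pathway were read from lists, beside the same background shares. Counts of these lists moved with the scaling, as those of all genes did, and are given at the authors' scaling, followed by those at equal library totals. At equal totals, 5289 of all 11261 genes tested were called higher and 2970 lower after irradiation. With palbociclib 940 of them were called higher and 5176 lower than with DMSO. Of 20 other ERK target genes 18 were tested, of which 10 were higher and 4 lower after irradiation (median 0.56), and 13 and 4 at equal totals. LIF, a cytokine of the interleukin-6 family, went from 572.2 ± 36.2 to 2125 ± 197 normalized counts, a log2 fold change of 1.89 (adjusted p = 4.98e-12), CCND1, which encodes the cyclin D1 partner of CDK4, from 17380 ± 1490 to 58190 ± 461 (1.75, adjusted p = 4.09e-12), and EPHA4, an ephrin receptor, from 424.1 ± 53.2 to 976.7 ± 29.8 (1.21, adjusted p = 4.66e-08). The 4 lower genes after irradiation were FOSL1 (-1.205, adjusted p = 8.82e-11, from 6315 ± 446 to 2738 ± 170), MYC (-0.69), ELK3 (-0.68) and IER2 (-0.50). With palbociclib 2 of the 18 were higher and 8 lower than with DMSO (median -0.33), and 0 and 14 at equal totals. The 2 higher genes were MYC (0.41, adjusted p = 0.000458) and CCND1 (0.23, adjusted p = 0.0141). Among genes with a mean of at least 100 the largest changes were decreases of ETV1, given above, of the immediate early factor EGR1, from 2130 ± 473 to 1362 ± 229 (-0.64, adjusted p = 0.00131), and of IER2, from 1185 ± 104 to 826.8 ± 92.2 (-0.52, adjusted p = 0.000407). With ruxolitinib 1 gene was called, LIF, higher at 2591 ± 126 (0.29, adjusted p = 0.0414). That call held in 9 of 18 alternatives and was lost without A116 (0.25, adjusted p = 0.195), A117, A122, A123 or A124. At an unadjusted p under 0.05, 1 of the 18 was higher and 4 were lower with ruxolitinib. A limma fit of the ruxolitinib and DMSO groups alone also called 1 higher and 4 lower, and DESeq2 called 1 higher and 1 lower.

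Of 8 further MAPK phosphatase genes 4 were tested. DUSP3 rose after irradiation, from 1716 ± 53.4 to 3671 ± 73.2 (log2 fold change 1.10, adjusted p = 6.07e-12), and DUSP7 fell, from 745.3 ± 13.8 to 527.8 ± 47.0 (-0.50, adjusted p = 1.94e-05). With palbociclib DUSP16, a JNK phosphatase, fell from 377.8 ± 30.3 to 245.9 ± 21.8 (-0.62, adjusted p = 4.10e-05), while DUSP22 and DUSP3 rose (0.47 and 0.19). The rise of DUSP3 was not called at equal totals, where it was -0.04, or after quantile normalization. None of the 4 was called with ruxolitinib by limma, edgeR or DESeq2, and 0 had an unadjusted p under 0.05. Of 16 other brakes on receptors and RAS 13 were listed and 12 tested, of which 1 was higher and 4 lower after irradiation and 4 higher and 5 lower with palbociclib. At equal totals these counts were 7 and 1 after irradiation, and 1 and 8 with palbociclib. ERRFI1, which encodes an inhibitor of the EGF receptor, moved most with palbociclib and in the direction opposite to the Sprouty genes, from 5628 ± 140 to 11100 ± 329 (0.98, adjusted p = 1.72e-10). SPRY1, a paralog of SPRY2 and SPRY4, fell from 100.1 ± 9.72 to 70.05 ± 0.978 (-0.51, adjusted p = 0.00470), a call lost after quantile normalization (-0.22, adjusted p = 0.164).

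Among 21 genes of the ERK cascade 20 were tested, with 5 higher and 8 lower after irradiation and 7 higher and 1 lower with palbociclib (medians -0.06 and 0.06). At equal totals the counts turned to 10 higher and 4 lower after irradiation, and to 0 higher and 10 lower with palbociclib. MAPK3, which encodes ERK1, rose from 683.8 ± 21.9 to 1548 ± 153 after irradiation (log2 fold change 1.17, adjusted p = 4.43e-09) and to 1983 ± 251 with palbociclib (0.35, adjusted p = 0.00281), the latter not called at equal totals (0.13, adjusted p = 0.206). NRAS fell from 3320 ± 114 to 1531 ± 80.5 after irradiation (-1.12, adjusted p = 2.89e-11). With ruxolitinib none of the 20 was called by limma over the 4 groups or by edgeR, and 2 had an unadjusted p under 0.05. DESeq2 called 1 higher, and a limma fit of the ruxolitinib and DMSO groups alone called 2 higher.

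Upstream, 19 of 22 growth factor ligands were tested, with 10 higher and 7 lower after irradiation and 3 higher and 10 lower with palbociclib (medians 0.17 and -0.32), or 10 and 4, and 0 and 12, at equal totals. Of the EGF family ligands tested, EREG, AREG and NRG1 rose after irradiation and fell with palbociclib, as DUSP4 did (NRG1 2.52 and -0.74). HBEGF and EGF did not follow that pattern. HBEGF rose after irradiation (0.94, adjusted p = 5.22e-08) and was not called with palbociclib (0.12, adjusted p = 0.23). EGF was called in neither comparison (-0.08 and 0.08). EREG was 46.9 ± 3.04 in proliferating libraries, 462.8 ± 13.2 under DMSO, 129.4 ± 24.2 under palbociclib and 405.9 ± 44.1 with ruxolitinib (3.28 after irradiation, adjusted p = 3.45e-12, and -1.85 with palbociclib, adjusted p = 1.91e-08). AREG was 60.2 ± 23.4, 279.4 ± 10.6, 46.3 ± 6.54 and 241.0 ± 25.0 in the same order (2.28, adjusted p = 1.86e-07, and -2.58, adjusted p = 2.40e-07). With ruxolitinib 1 ligand, VEGFA, was called lower (-0.29, adjusted p = 0.00263). At an unadjusted p under 0.05, 5 of the 19 were lower and 0 higher. A limma fit of the ruxolitinib and DMSO groups alone called 5 lower and 0 higher. Of 15 receptor tyrosine kinase genes 13 were tested, and 3 were higher and 7 lower after irradiation, and 6 higher and 3 lower with palbociclib. At equal totals these counts were 4 and 5, and 3 and 6. AXL fell from 21690 ± 736 to 7785 ± 106 (-1.48, adjusted p = 1.54e-13), and PDGFRB from 6873 ± 329 to 3383 ± 101 (-1.02, adjusted p = 1.80e-10), to rise to 5142 ± 354 with palbociclib (0.60, adjusted p = 4.94e-07).

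**Figure D5:**
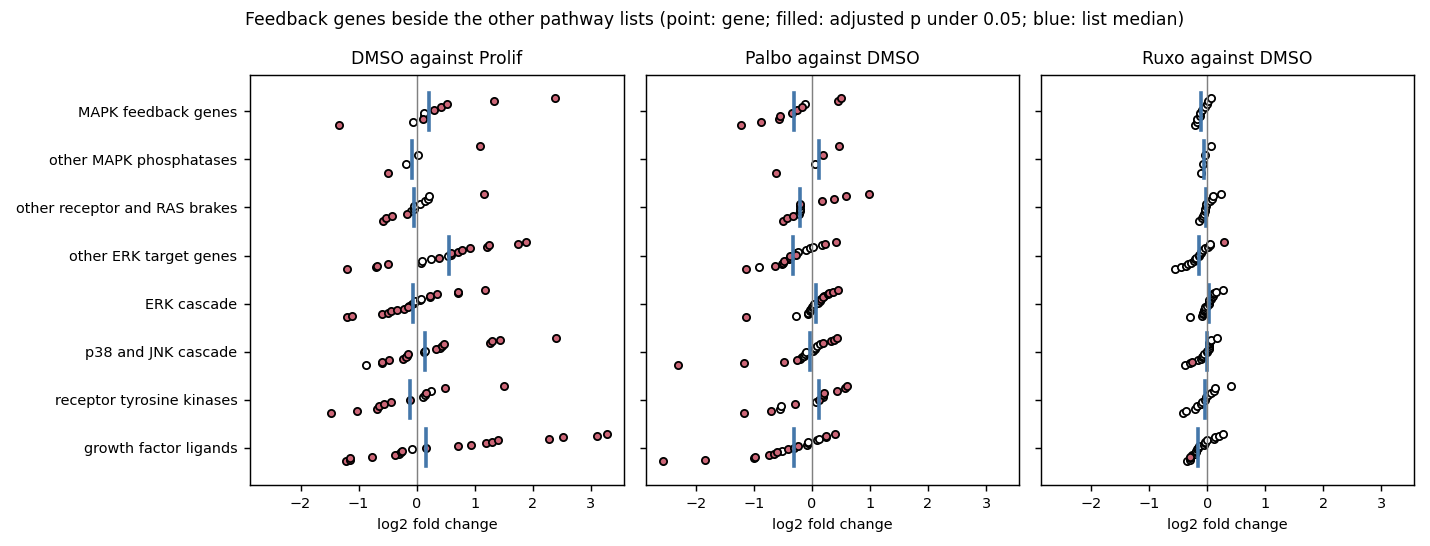
Log2 fold change (horizontal axis) of the feedback genes and of 7 lists of pathway genes in 3 comparisons, with 1 point per tested gene, filled where the adjusted p is under 0.05, and a blue line at the median. The median of the feedback genes is 0.21, -0.31 and -0.11 from left to right, and that of the other ERK target genes 0.56, -0.33 and -0.15.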

How the data were processed

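RNA was measured in 12 libraries of 4 groups. The authors deposited 1 table of normalized counts, a signal per gene on a common scale, for 16383 genes, of which 19 rows carry no symbol. The submitters' processing notes name Trimmomatic 0.38.1, HISAT2 2.2.1, featureCounts 2.0.3, FastQC 0.74, MultiQC and DESeq2 2.11.40.8, and the build hg38. The gene annotation, and whether counting used strand, are not given in the sources used here. Dividing each column by its smallest step gave whole reads for 160380 of 160380 values above 0 (100%, tolerance 0.01), 14106799 to 21762412 reads a library. The column headings give group and library number, and libraries are named by that number (A116 to A127).

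The test was limma 3.58.1 (R 4.3.3) on log2(normalized count + 1), with 4 group means, a trend and Benjamini-Hochberg adjustment over 11242 genes whose mean over libraries reached 10. All 10 members passed that filter. Genes were called at an adjusted p under 0.05. Fold changes are on that log2 scale and the intervals are limma's at 95%. The fits were tested on simulated data. edgeR 4.0.16 (TMM factors, quasi-likelihood test) and DESeq2 1.42.0 served as alternatives on the recovered reads. edgeR called 4103 genes higher and 4047 lower in DMSO against proliferating cells, 2677 and 2697 in palbociclib against DMSO, and 153 and 403 in ruxolitinib against DMSO.

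The members and the pathway lists were chosen with earlier results of these data known. From each list at most the 3 largest called changes per comparison were named, provided that the higher group's mean reached 100. Some further ERK target, EGF family, and p38 and JNK genes were added beside them, so that changes in other directions are seen. Positions and promoters come from RefSeq (GRCh38.p14) and exon lengths and overlaps from GENCODE. The genes closest in pattern to DUSP1 are not reported here.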

Additional observations from a re-analysis of the deposited data

How the results depend on the processing

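The changes and counts of the 10 genes, and, as an addition chosen after seeing the data, the pathway lists, were recomputed under 18 alternatives: other pseudocounts, filters, scalings and thresholds, limma without a trend or on the compared groups alone, edgeR, DESeq2, and each library left out in turn. No paired analysis was possible because the columns carry no replicate numbers. The number of members lower with ruxolitinib than with DMSO was 0, and 3 in the fit of those groups alone, 1 with DESeq2 and 1 at the same total. Over all genes tested, 384 of 11242 were called lower, 451 of 11017 with DESeq2 and 470 of 11261 at the same total. The number higher with ruxolitinib than in proliferating cells was 4, and 8 at the same total, 7 at the same upper quartile and 7 with quantile normalization. Over all genes tested it was 3670 of 11242, 5049 of 11261, 4829 of 11252 and 4280 of 11207 in that order. Some differences near 0 that were not called turned sign, a few of them into calls. In DMSO against proliferating cells the median gene itself shifted by 0.229 with equal totals, 0.159 with equal upper quartiles and 0.142 with quantile normalization. In ruxolitinib against proliferating cells the median gene shifted by 0.204, 0.176 and 0.16 in that order. Beyond these shifts, the cause of the turns was not tested. At the same total, the same upper quartile and quantile normalization in that order, ETV5 in DMSO against proliferating cells became 0.163, 0.093 and 0.092, and in ruxolitinib against proliferating cells ETV5 became 0.13, 0.10 and 0.10, SPRY2 0.102, 0.074 and 0.078 and PHLDA1 0.19, 0.16 and 0.15 (adjusted p = 0.000821, 0.00308 and 0.00655; 0.047 with edgeR and 0.045 with DESeq2). DUSP10 in palbociclib against proliferating cells became 0.091 at the same upper quartile, 0.15 with quantile normalization, 0.001 with edgeR and 0.004 with DESeq2. DUSP5 in palbociclib against ruxolitinib became -0.15 at the same total. In ruxolitinib against DMSO, DUSP6 became -0.014 at the same total and ETV5 0.01 at the same upper quartile and 0.008 with quantile normalization. With 1 library left out, values spanned 0 for DUSP1 (-0.083 to 0.006), DUSP6 (-0.011 to 0.040) and ETV5 (-0.014 to 0.002) in ruxolitinib against DMSO, and for SPRY4 (-0.014 to 0.061) and PHLDA1 (-0.046 to 0.004) in ruxolitinib against proliferating cells. Of the 44 changes of list genes named as the largest called ones of a list, 43 kept their direction and 34 their call in every alternative. The paired log2 ratios, recomputed under 7 alternatives (a pseudocount of 1 and each library left out, chosen after seeing the data), moved by less than the spread between libraries. For ETV5 to ETV4 in palbociclib against DMSO the difference of 0.86 ranged from 0.75 to 0.95, and for DUSP1 to DUSP10 the difference of 1.00 ranged from 0.93 to 1.07. Normalized counts depend on the authors' scaling, under which the libraries of the groups sum to different totals: 19409359 on average in proliferating, 16554893 in DMSO, 19369896 in palbociclib and 16844894 in ruxolitinib libraries.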

Other observations

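The p38 and JNK branch, on which DUSP1 and DUSP10 act, was read from a list of 18 genes, all tested. After irradiation 7 were higher and 6 lower, with palbociclib 4 were higher and 4 lower than with DMSO, and with ruxolitinib 1 was lower. These shares stand beside 33.0% and 39.3%, 26.0% and 22.3%, and 1.10% and 3.42% of all tested genes higher and lower. At equal library totals the counts were 10 and 3 after irradiation, and 1 and 11 with palbociclib. Over all 11261 genes tested there, 5289 were higher and 2970 lower after irradiation, and 940 and 5176 with palbociclib. GADD45A, a stress-induced activator of the branch, rose from 1127 ± 122 (SD, n = 3) to 3030 ± 113 normalized counts after irradiation (log2 fold change 1.43, adjusted p = 2.55e-10) and fell to 2179 ± 240 with palbociclib (-0.48, adjusted p = 0.000176). Of the genes that encode p38 kinases, MAPK11, MAPK13 and MAPK12 rose after irradiation by 1.30, 1.27 and 0.44 on the log2 scale. MAPK14, the most abundant of them, fell from 1627 ± 124 to 1436 ± 22.9 (-0.18, adjusted p = 0.0113). The other lower genes after irradiation were MAPKAPK2 (-0.60), MAPK8 (-0.60), MAP3K5 (-0.47), MAPK9 (-0.24) and MAP3K7 (-0.14). MAPK13 was lower with ruxolitinib than with DMSO (-0.26, adjusted p = 0.0414), a call that held in 9 of 18 alternatives and was lost without A116, A117, A118, A122 (-0.20, adjusted p = 0.233) or A123. A limma fit of the ruxolitinib and DMSO groups alone called 3 of the 18 genes lower. MAPK9, which encodes a JNK kinase, rose with palbociclib from 1056 ± 22.3 to 1430 ± 15.4 (0.44, adjusted p = 6.66e-06). The other JNK genes, MAPK8 (-0.145, adjusted p = 0.0681) and MAPK10 (-0.205, adjusted p = 0.368), were not called with palbociclib.

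The remaining phosphatase genes listed, DUSP2, DUSP8, DUSP9 and DUSP14, had means of at most 14.45 normalized counts in any group and were not tested.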
